A study of Rattus norvegicus with 3 samples.

Results

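A set of 10 genes of the NRF2 pathway and of glutathione-dependent antioxidant defence was followed in 2 rat sarcoma cell lines and in rat mesenchymal stem cells. They were Nfe2l2, which encodes NRF2 itself, Nqo1, Hmox1, Gclc, Gclm, Txnrd1, Gsta4, Gstp1, Gpx1 and Gpx3. They were picked by name for their role, with earlier results of these data known, and are 10 of the 13301 rat genes with a named probe on the array. All 10 had a probe, with 14 probes in all, and 8 were well above background on all 3 arrays. Gclm in MSC and Gpx3 in COS1NR were not, so these 2 passed the filter through the arrays where they were brighter.

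Each of 3 samples was hybridised to 1 whole rat genome array of Agilent with a single dye. The groups were MSCs, isolated from F344 rat femur bone marrow by growth on plastic and not sorted by any stated marker, the osteosarcoma line COS1NR and the malignant fibrous histiocytoma line MFH1NR. Both lines were established from tumours that 4-HAQO, a chemical carcinogen, had induced in F344 rats, and the methods state that both carry mutated p53. All cells grew in the same basal medium, the MSCs with more serum than the lines. No treatment was given. The number and age of the rats behind the MSCs and the passage of the cells are not given in the sources used here. Each tumour type is represented by 1 line, so values belong to these lines and not to the tumour types.

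NRF2 is a transcription factor that the adaptor KEAP1 holds in the cytoplasm and passes to the proteasome. Oxidants and electrophiles modify KEAP1, and NRF2 then enters the nucleus, pairs with small MAF proteins and binds antioxidant response elements in front of detoxifying and antioxidant genes. Because this control acts mostly on the protein, the Nfe2l2 transcript level is not a reading of NRF2 activity. Glutathione, the tripeptide made by glutamate-cysteine ligase and glutathione synthetase, is the electron donor of glutathione peroxidases and the group that glutathione transferases join to reactive compounds.

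Values are processed spot intensities. For comparisons each intensity was divided by the 75th percentile of its own array, which was 589 for MSC, 774 for COS1NR and 994 for MFH1NR, and ratios were taken between these relative levels. A difference of 2-fold or more was counted as higher or lower. With 1 array a group there was no replicate error and no test. The spread that could be measured was technical: probes printed at 10 spots had a median SD of 0.0530, 0.0457 and 0.0407 on the log2 scale on the 3 arrays, and 2 probes of the same gene differed in their log2 ratio by a median of 0.28 for COS1NR to MSC, 0.31 for MFH1NR to MSC and 0.15 for COS1NR to MFH1NR over 1895 genes. The 90th percentiles of that difference were 0.91, 0.99 and 0.59. The lines shared 1 slide and MSC was on a different one. In any ratio to MSC the slide therefore cannot be told apart from the kind of cell, and both such ratios rest on the same MSC array.

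The samples were checked against cell type markers. The MSC array was well above background for all 4 mesenchymal stem cell markers and also for all 14 macrophage markers, whose summed relative level was 182 in MSC, 9.67 in COS1NR and 4.69 in MFH1NR. Such sums follow the brightest probes, here Lyz2 at 54.8 and Cd14 at 43.5 in MSC. Of the 14, 7 were well above background in COS1NR and 6 in MFH1NR. All 14 macrophage markers were at least 2-fold lower in both lines, where 14.6% of all genes were. Of 5 osteoblast markers, 4 were well above background in MSC, 4 in COS1NR, Alpl and Spp1 among them, and 5 in MFH1NR, and the factor Sp7 cleared background only in MFH1NR. Against MSC 0 were higher and 4 lower in COS1NR (all genes 21.7% and 22.3%), and 2 higher and 2 lower in MFH1NR (20.8% and 23.2%). Ibsp was 14.1-fold and 172-fold lower, and Spp1 was 2.13-fold lower in COS1NR and 2.44 times MSC in MFH1NR. Adipocyte markers summed to 8.87 in MSC, 40.7 in COS1NR and 0.0698 in MFH1NR, with 3 of 5 higher and 2 lower in COS1NR than in MSC. Fabp4, Lpl and Pparg were 54.1, 9.53 and 7.15 times MSC in COS1NR, Cfd was 2.36-fold lower and Adipoq did not clear background, and none of the 5 did in MFH1NR. Fibroblast markers summed to 998, 130 and 269, and Col1a2 was 544-fold lower in COS1NR than in MSC. Erythroid and endothelial markers summed to less than 1 on every array. The MSC marker Thy1 did not clear background in COS1NR, nor Eng in either line.

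The sequences in front of 3 of the genes are shown because they hold the core letters of the antioxidant response element, TGACNNNGC, within 250 bases before the start site. Windows come from RefSeq on the build GRCr8 and are written 5′ to 3′ on the strand of the gene, with the matching letters in capitals. The Gstp1 window is chr1:210769706-210769955 on the minus strand, the Gclm window chr2:213031885-213032134 on the plus strand, and the Txnrd1 window, 1 of 2 for that gene, chr7:22755905-22756154 on the minus strand.
Gstp1: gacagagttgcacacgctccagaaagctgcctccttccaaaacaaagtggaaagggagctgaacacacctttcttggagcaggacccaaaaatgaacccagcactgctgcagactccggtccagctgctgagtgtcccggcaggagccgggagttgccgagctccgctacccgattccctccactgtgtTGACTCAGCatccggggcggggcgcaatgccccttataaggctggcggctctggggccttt
Gclm: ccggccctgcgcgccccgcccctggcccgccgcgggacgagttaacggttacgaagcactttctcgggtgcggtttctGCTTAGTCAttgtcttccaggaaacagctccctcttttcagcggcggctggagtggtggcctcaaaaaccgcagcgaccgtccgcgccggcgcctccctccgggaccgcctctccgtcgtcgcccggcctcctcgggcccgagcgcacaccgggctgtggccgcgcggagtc
Txnrd1: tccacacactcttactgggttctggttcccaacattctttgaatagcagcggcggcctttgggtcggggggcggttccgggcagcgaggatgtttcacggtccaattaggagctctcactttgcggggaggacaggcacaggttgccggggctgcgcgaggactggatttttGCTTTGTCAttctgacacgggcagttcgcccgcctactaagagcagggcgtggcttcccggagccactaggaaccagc
The Gstp1 match begins 61 bases before the start site and reads in the direction of the gene. The Gclm match begins 172 bases and the Txnrd1 match 78 bases before it, and both lie on the opposite strand. With both strands searched, 3 of 10 windows from 9 of the genes held the core letters, against 10.1% of 33469 windows of all genes and 12.3% of 8577 windows of the genes used here. Hmox1 had no window. Among the other NRF2 targets listed further on, 6 of 25 windows held them. The longer form TGACTCAGC, which contains the AP-1 letters TGACTCA, was in the Gstp1 window and in 0.376% of all windows. The AP-1 letters alone were in 4.05% of all windows. A match describes letters only, not a binding site.

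**Figure D1:**
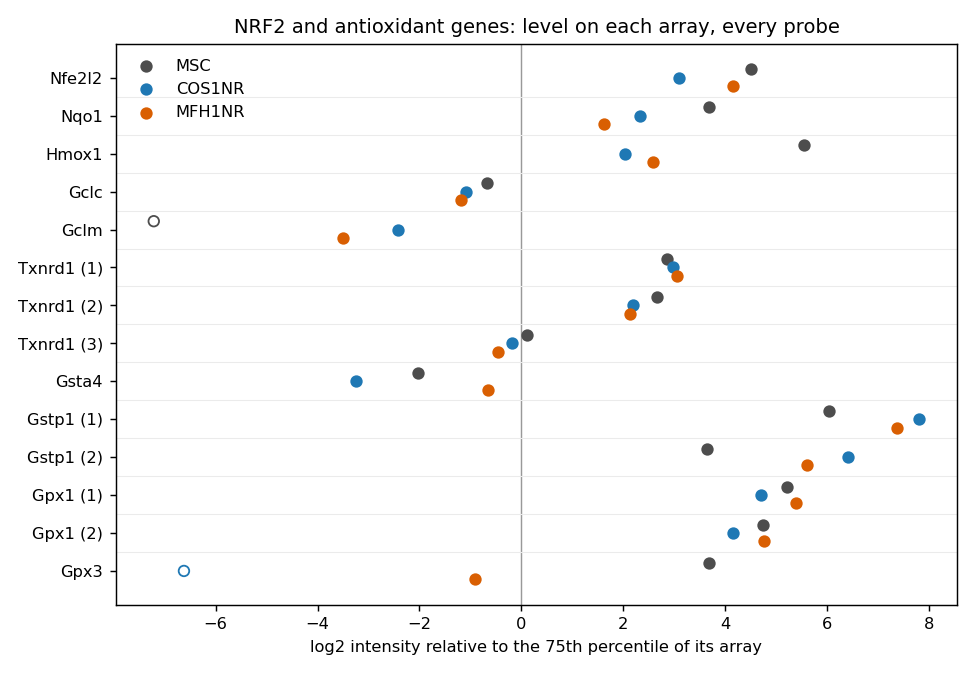
Relative level of the 10 genes in the 3 samples, every named probe drawn, as log2 of intensity over the 75th percentile of the array, with 1 point per array and hollow points where the probe was not well above background. Levels of different genes are not comparable, and the widest gap between arrays is that of Gpx3, at 7542 in MSC and 7.85 in COS1NR as intensity.

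Nfe2l2 had an intensity of 13416 in MSC, 6638 in COS1NR and 17794 in MFH1NR. Relative to each array it was 2.65-fold lower in COS1NR than in MSC (log2 ratio -1.41) and 2.09-fold lower in COS1NR than in MFH1NR (-1.06). COS1NR was thus the lowest of the 3. MFH1NR and MSC lay close, at a log2 ratio of -0.35 that turned positive, to 0.41, without scaling and to 0.25 with scaling to spike-in probes.

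Of 14 genes that restrain NRF2, release it or act on its elements, 12 could be used. In COS1NR against MSC 0 were at least 2-fold higher and 3 lower, where 21.7% and 22.3% of all genes were, and in MFH1NR 0 were higher and 5 lower, where 20.8% and 23.2% were. Their medians were -0.19 and -0.45 on the log2 scale, against 0.11 and 0.01 for all 10009 genes, and without scaling they became 0.21 and 0.31, against 0.51 and 0.77. Bach1, the repressor that competes with NRF2 for its elements, had intensities of 360, 134 and 257 in MSC, COS1NR and MFH1NR and was 3.54-fold and 2.36-fold lower in the lines than in MSC, and its second probe gave 5.09-fold and 3.18-fold. Mafk, a small MAF partner, was 3.45-fold and 3.06-fold lower. Maff, another small MAF, was 3.12-fold lower in COS1NR. In MFH1NR its probe did not clear background, which gives a level at least 8.15-fold below MSC. "At least" marks such bounds throughout, computed against the lowest intensity well above background on the dim array. Dpp3, which binds KEAP1, was 1.53-fold and 2.04-fold lower. The probes of Sqstm1, which encodes the KEAP1-binding autophagy receptor p62, disagreed for COS1NR, with 1 of 4 giving 1.98 times MSC and the other 3 giving 0.582 to 0.788 of it. That 1 probe is assigned to a different RefSeq transcript from the other 3. In MFH1NR all 4 were below MSC, at 0.337 to 0.824, and the brightest was 2.77-fold lower. Keap1, named for its role and not for the size of its difference, had intensities of 788, 1714 and 2551 and was 1.66 and 1.92 times MSC.

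Nqo1, the quinone reductase that is the usual reporter of NRF2 activity, had intensities of 7545 in MSC, 3882 in COS1NR and 3068 in MFH1NR. It was 2.55-fold lower in COS1NR (log2 ratio -1.35) and 4.15-fold lower in MFH1NR (-2.05) than in MSC. MSC was the highest sample, although without scaling the COS1NR ratio was -0.96 and fell short of 2-fold. Between the lines COS1NR was 1.63 times MFH1NR, a log2 ratio of 0.70 that became -0.05 with spike-in scaling.

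Hmox1, the inducible heme oxygenase that splits heme into iron, carbon monoxide and biliverdin, was printed at 10 spots. Its intensity was 27589 in MSC, with spots from 25958 to 29459, 3170 in COS1NR, with spots from 3004 to 3303, and 5947 in MFH1NR, with spots from 5766 to 6169. The spots of the 3 arrays did not overlap, though they show only the error of 1 hybridisation each. Hmox1 was 11.4-fold lower in COS1NR (log2 ratio -3.51) and 7.83-fold lower in MFH1NR (-2.97) than in MSC. Between the lines the log2 ratio was -0.55, and with spike-in scaling -1.30. Hmox1 is also abundant in macrophages, whose 14 markers were all lower in both lines, with the summed levels given above. The part of those cells in the Hmox1, Nqo1 and Gpx3 values was not tested, and in whole cultures fewer cells of a type and less RNA per cell cannot be told apart.

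The 2 subunits of glutamate-cysteine ligase, which carries out the rate-limiting step of glutathione synthesis, differed in pattern. Gclc, the catalytic subunit, had intensities of 369, 367 and 439 in MSC, COS1NR and MFH1NR. Its log2 ratios to MSC were -0.40 and -0.50, the latter becoming 0.25 without scaling and 0.09 with spike-in scaling. Between the lines it was 0.10, which became -0.26 and -0.65 under the same settings. All 3 samples lay within 2-fold for Gclc. Gclm, the modifier subunit, had intensities of 3.96 in MSC, not well above background, 144 in COS1NR and 87.9 in MFH1NR. COS1NR therefore exceeded MSC at least 6.12-fold and MFH1NR exceeded it at least 2.91-fold. Gclm intensities were low on every array, and with another background correction (normexp) the measured log2 ratios were 1.53 and 0.75, both below the log2 bounds of 2.61 and 1.54 and the second short of 2-fold. COS1NR was 2.10 times MFH1NR, which was 0.32 to 0.78 on the log2 scale without scaling, with normexp or with spike-in scaling.

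Txnrd1, the cytosolic thioredoxin reductase, was measured by 3 probes. The brightest had intensities of 4289, 6095 and 8224 in MSC, COS1NR and MFH1NR and gave ratios of 1.08 and 1.14 to MSC. The second gave 0.718 and 0.691 and the third 0.823 and 0.677. The direction therefore depended on the probe, and no probe reached 2-fold. For the brightest probe the COS1NR log2 ratio of 0.11 became -0.04 with spike-in scaling. Between the lines the 3 probes gave 0.952, 1.04 and 1.22.

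**Figure D2:**
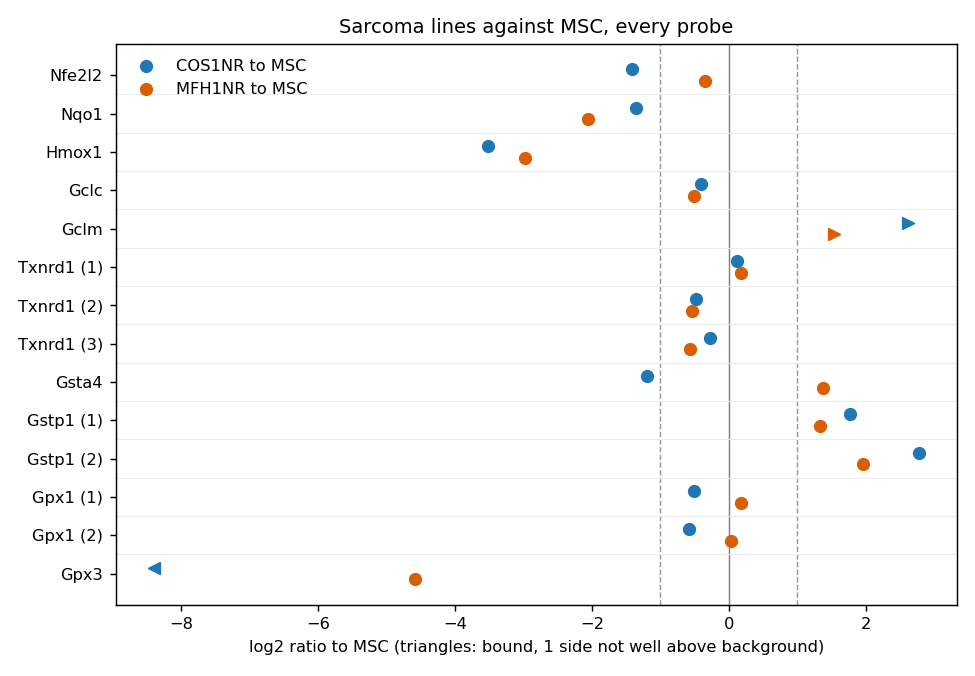
Log2 ratios of the 10 genes to MSC for COS1NR and MFH1NR, every named probe drawn with 1 point per line. Dashed lines mark 2-fold and triangles mark bounds where 1 array was not well above background, as for Gclm against MSC and for Gpx3 in COS1NR.

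Gstp1, the pi class transferase, was at least 2-fold higher in both lines than in MSC. Its brighter probe had intensities of 38789 in MSC, 173735 in COS1NR and 164381 in MFH1NR. That probe was 3.41 times MSC in COS1NR (log2 ratio 1.77) and 2.51 times MSC in MFH1NR (1.33). Its second probe, at 7358, 66387 and 48434, gave 6.87 and 3.90 times. The probes shared the direction and differed in size. Between the lines the log2 ratios were 0.44 and 0.82, and the first became -0.31 with spike-in scaling. No spot on the arrays was marked as saturated.

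Gsta4, the alpha class transferase that conjugates the lipid peroxidation product hydroxynonenal, separated the lines. Its intensity was 144 in MSC, 82.1 in COS1NR and 631 in MFH1NR. It was 2.60 times MSC in MFH1NR (log2 ratio 1.38) and 2.30-fold lower than MSC in COS1NR (-1.20). MFH1NR was the highest and COS1NR the lowest sample. COS1NR was 5.98-fold lower than MFH1NR on the same slide (-2.58). The lower level in COS1NR than in MSC shrank to -0.81 without scaling and -0.89 with normexp.

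Gpx1, the cytosolic selenium-dependent peroxidase, stayed within 2-fold in all 3 comparisons. Its probes had intensities of 21897 and 15695 in MSC, 20155 and 13755 in COS1NR, and 41868 and 26976 in MFH1NR. The ratios to MSC were 0.701 and 0.667 in COS1NR and 1.13 and 1.02 in MFH1NR. The MFH1NR to MSC log2 ratio of the brighter probe, 0.18, was below the median gap of 0.31 between 2 probes of a gene, but it was 0.94 without scaling, 0.78 with spike-in scaling and 0.55 with quantile normalization. Against MFH1NR, COS1NR was at 0.619 and 0.655, and the log2 ratio of the brighter probe, -0.69, reached -1.05 without scaling and -1.45 with spike-in scaling.

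Gpx3, the secreted glutathione peroxidase of plasma, had intensities of 7542 in MSC, 7.85 in COS1NR and 533 in MFH1NR. The COS1NR spot was not well above background. Against MSC, Gpx3 was 23.9-fold lower in MFH1NR (log2 ratio -4.58) and at least 337-fold lower in COS1NR. It was at least 14.1-fold lower in COS1NR than in MFH1NR. Both bounds depend on the handling of background, and with normexp the measured log2 ratios were -7.15 and -2.74, smaller than the bounds of -8.40 and -3.82. Only 1 probe measured Gpx3.

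Counted together, 2 of the 10 genes were at least 2-fold higher in COS1NR than in MSC, against 21.7% of 10009 genes, and 5 were lower, against 22.3%. In MFH1NR 3 were higher, against 20.8%, and 3 lower, against 23.2%. COS1NR exceeded MFH1NR in 1, against 16.0%, and was below it in 3, against 13.9%. Gclm and Gstp1 were higher in both lines, Gclm only without the normexp correction, where 12.2% of all genes were, and Nqo1, Hmox1 and Gpx3 were lower in both, where 14.6% were. These counts carry no test, and without scaling the 5 lower in COS1NR than in MSC became 3 and the 3 below MFH1NR became 4, or 5 with spike-in scaling. The median log2 ratios of the 10 genes were -0.86, -0.08 and -0.31 in the 3 comparisons, against 0.11, 0.01 and 0.11 for all genes. The MFH1NR to MSC median became 0.67 without scaling, where that of all genes became 0.77.

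**Figure D3:**
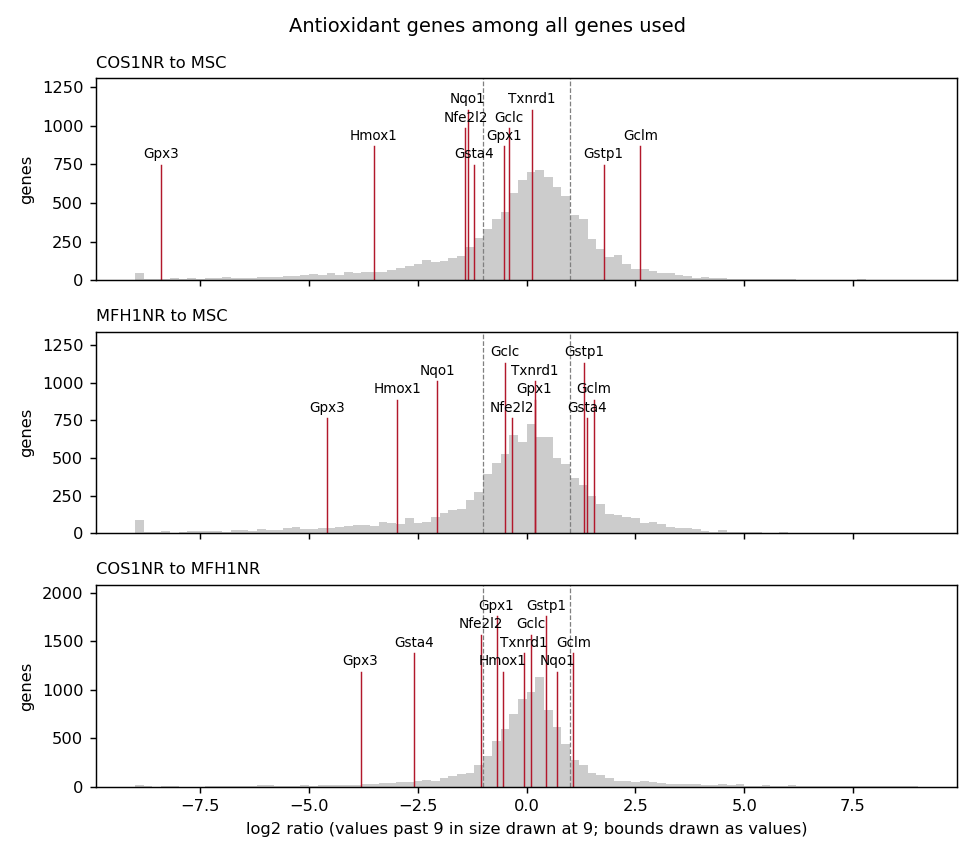
Distribution of log2 ratios of all 10009 genes used in each comparison, with the 10 genes marked and bounds drawn as values. Hmox1 and Gpx3 lie in the lower tail of both comparisons with MSC, while Gclc, Txnrd1 and Gpx1 lie near the middle.

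Other genes of the pathway were read from fixed lists. Some lists share genes, such as Slc7a11 and Gsr among NRF2 targets and glutathione genes, so their counts are not separate. Of 29 other NRF2 targets 27 could be used. In COS1NR against MSC 8 were higher and 4 lower, beside 21.7% and 22.3% of all genes, and in MFH1NR 5 were higher and 7 lower, beside 20.8% and 23.2%. Between the lines 10 were higher in COS1NR and 4 lower, beside 16.0% and 13.9%, with a median log2 ratio of 0.61 that became -0.15 with spike-in scaling, where that of all genes moved from 0.11 to -0.64. The carboxylesterase gene Ces1d had an intensity of 606 in COS1NR and was not well above background elsewhere, at least 25.8-fold above MSC. Abcc2, an exporter of glutathione conjugates, had intensities of 55.8, 235 and 1375 in MSC, COS1NR and MFH1NR, 3.20 and 14.6 times MSC in the lines. Cbr3, a carbonyl reductase, was 4.53 times MSC in MFH1NR and 0.533 of it in COS1NR. Ephx1, the microsomal epoxide hydrolase, was 3.10-fold lower in COS1NR and 7.59-fold lower in MFH1NR.

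For glutathione synthesis and recycling, 18 of 20 genes could be used, with 3 higher and 5 lower in COS1NR (all genes 21.7% and 22.3%) and 4 higher and 3 lower in MFH1NR (20.8% and 23.2%) against MSC. These shares lay near those of all genes. Between the lines 1 was higher in COS1NR and 5 lower, beside 16.0% and 13.9% of all genes. Anpep, an aminopeptidase that cleaves the products of glutathione breakdown, was 14.2-fold lower in COS1NR and 6.42-fold lower in MFH1NR than in MSC. The gamma-glutamyl transferase genes Ggt1 and Ggt7 were 7.23-fold and 8.61-fold lower in COS1NR and within 2-fold of MSC in MFH1NR, at 1.60 and 0.637. Ggt5 was 3.32-fold lower in COS1NR and 3.61 times MSC in MFH1NR. Chosen after their values were seen, for their place in the pathway, were Slc7a11, Gss and Gsr. Slc7a11, the cystine carrier, had an intensity of 162 in COS1NR, at least 6.89-fold above MSC, and was not well above background in MSC or MFH1NR. Gss, glutathione synthetase, was 2.66-fold and 2.39-fold lower, and Gsr, which reduces oxidised glutathione, was 2.98 and 2.25 times MSC.

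Glutathione transferases outside the 10 genes had positive medians in both comparisons of COS1NR. Of 18 usable genes of 25, 10 were higher and 3 lower in COS1NR against MSC (all genes 21.7% and 22.3%), with a median log2 ratio of 1.07 that was 0.82 with normexp and 0.91 with spike-in scaling. In COS1NR against MFH1NR 10 were higher and 2 lower (16.0% and 13.9%), with a median of 1.29. With dim values at their bound 1 was lower and the median was 1.13. The median was 0.93 without scaling and 0.54 with spike-in scaling, where all genes were at -0.25 and -0.64. Adipocyte and fibroblast markers also differed between these samples, at the summed levels given above, and their part was not tested. In MFH1NR against MSC 3 were higher and 6 lower (20.8% and 23.2%), with a median of 0.04 that became -0.21 with normexp and 0.79 without scaling, where all genes were at -0.11 and 0.77. Mgst1, the membrane-bound transferase, had intensities of 712, 26075 and 1910 and was 27.9 times MSC in COS1NR and 1.59 times in MFH1NR. Gsta1 was 2.18 times MSC in COS1NR and 8.04-fold lower in MFH1NR. Gstm2 was 2.78-fold and 24.7-fold lower. Hpgds, the hematopoietic prostaglandin D synthase, was at least 10.4-fold and 13.0-fold lower. Alpha and mu class genes have near-identical copies whose RNA a probe may share, so values of single genes of these classes are uncertain. The counts and medians of this list take such genes as separate and share that uncertainty. Of the 10 higher in COS1NR than in MFH1NR, Gstt1 and Mgst1 were those of other classes.

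**Figure D4:**
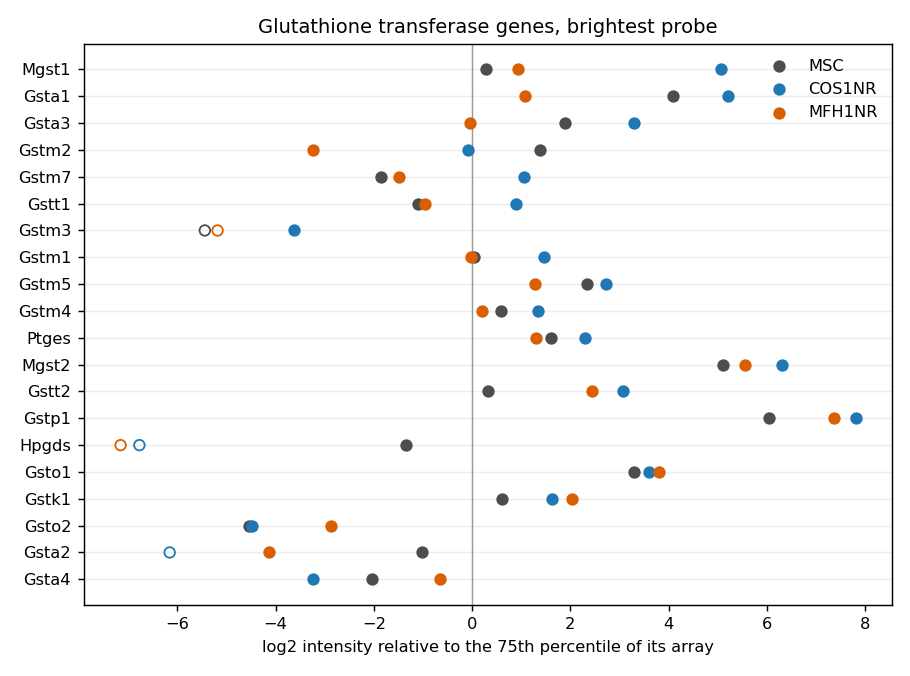
Relative level of the glutathione transferase genes that could be used, Gstp1 and Gsta4 included, as log2 of intensity over the 75th percentile of the array, with 1 point per array for the brightest probe and hollow points where it was not well above background. COS1NR is the highest sample for Mgst1, Gsta1 and Gstp1, MFH1NR for Gsta4 and MSC for Gstm2 and Hpgds.

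Of the other peroxidases, Gpx4, Gpx7 and Gpx8 could be used. Gpx7 was 2.95-fold lower in COS1NR than in MSC, and the remaining ratios of these 3 genes to MSC lay between 0.588 and 1.15. In the thioredoxin and peroxiredoxin list, 16 of 17 genes could be used, with 3 higher and 1 lower in COS1NR (all genes 21.7% and 22.3%) and 1 higher and 4 lower in MFH1NR (20.8% and 23.2%). Prdx4, the peroxiredoxin of the endoplasmic reticulum, had intensities of 8857 in MSC and 14605 in COS1NR but 6.29 in MFH1NR, not well above background, at least 497-fold below MSC on its only probe. Srxn1, the NRF2 target that restores overoxidised peroxiredoxins, was 3.14-fold and 3.80-fold lower, Msra 1.58-fold and 3.75-fold lower, and Txnrd3 3.21 and 2.00 times MSC.

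Among superoxide dismutases, the mitochondrial Sod2 was 5.43 times MSC in COS1NR and 0.862 of it in MFH1NR. The extracellular Sod3 was 2.02-fold lower in COS1NR and 29.1-fold lower in MFH1NR. The cytosolic Sod1 was 1.51 and 2.15 times MSC on one probe and 1.19 and 1.64 times on the other, its copper chaperone Ccs 0.736 and 0.729, and catalase lay within 2-fold in all comparisons. In heme and iron handling, 13 of 13 genes could be used, with 4 higher and 2 lower in COS1NR (all genes 21.7% and 22.3%), and 2 higher and 4 lower in MFH1NR (20.8% and 23.2%). The iron exporter Slc40a1 was 4.89-fold below MSC in COS1NR and, by its bound, at least 11.3-fold below it in MFH1NR, and the transferrin receptor Tfrc 1.78-fold and 4.61-fold lower. The iron importer Slc11a2 and the heme carrier Slc48a1 were 3.02 and 2.12 times MSC in COS1NR and 3.06-fold and 3.22-fold lower in MFH1NR.

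Of 12 usable selenoprotein genes, 3 were higher and 2 lower in COS1NR (all genes 21.7% and 22.3%) and 4 higher and 1 lower in MFH1NR (20.8% and 23.2%), or 3 higher in MFH1NR with dim values at their bound. Sephs2, which makes the selenium donor, was 2.74 and 3.51 times MSC, and Eefsec, the elongation factor for selenocysteine, 3.10 and 3.45 times. Selenos was 4.65-fold and 5.30-fold lower, and Selenom 5.47-fold and 1.26-fold lower. Of 7 usable NADPH oxidase genes, which encode superoxide- or peroxide-making enzymes of phagocytes and other cells, 1 was higher and 5 lower in COS1NR (all genes 21.7% and 22.3%) and 1 higher and 4 lower in MFH1NR (20.8% and 23.2%). The higher gene, Nox1, an oxidase known from epithelium and named after its values were seen, was at least 6.16-fold above MSC in COS1NR and 5.23-fold in MFH1NR. Cybb was at least 24.2-fold and 30.4-fold lower and Ncf1 at least 31.6-fold and 39.7-fold. Ncf4 was 6.05-fold and 174-fold lower, and Cyba at least 605-fold lower in COS1NR but 1.88-fold lower in MFH1NR. The macrophage markers were lower in both lines as well, at the summed levels given above, and their part in it was not tested.

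**Figure D5:**
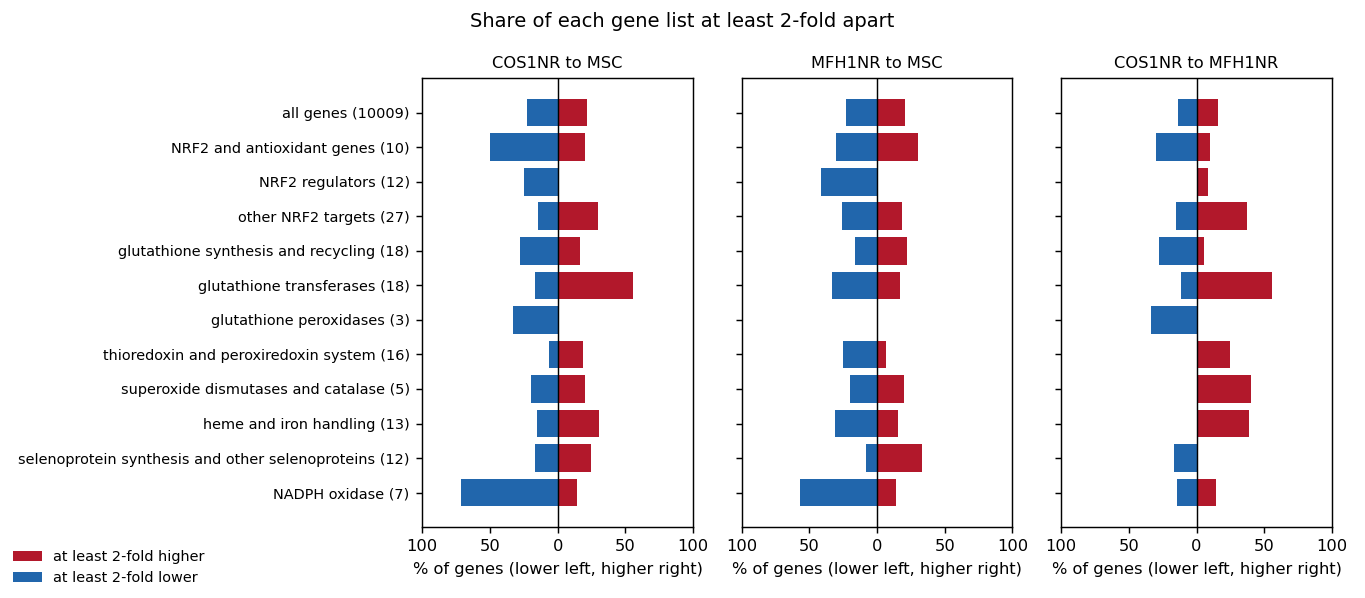
Share of each gene list, in percent, that was at least 2-fold higher (right) or lower (left) in each comparison, with all genes on top and the number of usable genes in brackets. Of the glutathione transferases 10 of 18 were higher in COS1NR in each comparison, and 5 and 4 of 7 NADPH oxidase genes were lower in the lines than in MSC, with 1 higher.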

How the data were processed

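RNA of 3 samples was labelled with Cy3 and hybridised to 1 Agilent array each, so the number of arrays limits the precision. The authors deposited spot intensities, which per the file headers come from Agilent Feature Extraction 10.5.1.1, whereas the submitters' processing notes name version 9.1. The processed intensity is already background-subtracted. Methods and labels name different RNA and labelling kits. The deposited series table held the same intensities as the scanner files on 3 of 3 arrays, as an intensity on the linear scale and uncentred.

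Control spots and outlier spots were left out, spots of a probe were averaged on the log2 scale, and each array was scaled to its 75th percentile. Of 41012 probes 40816 remained, and 56.6% to 59.7% of spots an array were well above background. RefSeq accessions of the files named 16745 probes of 13301 genes. The probe with the highest mean log2 intensity stood for a gene, and the 10009 genes with such a probe above the background limit of 1 array or more were used. Where 1 side was dim, the fold printed for a gene is a bound. Counts, medians and the ratios set against alternatives used measured values, dim ones included. With dim values raised to the background limit, 2169 genes higher and 2231 lower in COS1NR than MSC became 1943 and 1941.

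The 10 genes and the lists were chosen with earlier results of these data known. All 10 genes are named with every probe. From each of 10 pathway lists up to 4 genes with the largest difference in any comparison are named, and each NRF2 regulator at least 2-fold apart. Alternatives changed the scaling, background correction, source of values, probe choice, filter, floor and threshold. The file columns hold no mean spot signal, so normexp (offset 50) used median spot and local background intensities. Scaling to controls used 7 spike-in probes. The steps were tested on simulated data. Python 3.11.15, numpy 2.4.6, pandas 2.3.3, matplotlib 3.10.9, R 4.3.3 and limma 3.58.1 were used.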

Additional observations from a re-analysis of the deposited data

Results flagged for a closer look

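The results below stood out because the lines lay on opposite sides of MSC, each by at least 2-fold. With 1 array a group the difference between the lines was not tested. Gsta4 had a log2 ratio to MSC of -1.20 in COS1NR and 1.38 in MFH1NR. Ggt5 had -1.73 and 1.85. Gsta1 had 1.12 and -3.01, with the uncertainty of near-identical alpha class copies. Slc11a2 had 1.59 and -1.61, and Slc48a1 had 1.09 and -1.69. The signs held in every alternative, though the choices of source of values, probe, filter and floor left these ratios unchanged. The 2-fold difference on both sides did not always hold. It was lost for Gsta4 in COS1NR without scaling (-0.81) and with normexp (-0.89), for Slc11a2 in MFH1NR without scaling (-0.86), for Slc48a1 in MFH1NR without scaling (-0.93) and in COS1NR with spike-in scaling (0.93), and for Gsta1 in COS1NR with spike-in scaling (0.97).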

How the results depend on the processing

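Of 30 ratios of the 10 genes 17 were at least 2-fold apart, all 17 kept their direction in each of the up to 11 alternatives that gave that ratio, and 13 stayed past 2-fold in every one. Part of this agreement was fixed in advance, because several alternatives could not change a ratio. The series table held the same intensities, and the filters only decide which genes are used. The choice of probe leaves the 7 genes with 1 probe unchanged, and the floor touches only dim values. Of the 13 others 2 passed it in at least 1. The larger moves in counts are given here, first for the 10 genes and then for all genes, and smaller ones are left out. Lower in COS1NR than MSC, 5 became 3 without scaling and 2 at 3-fold. Higher in COS1NR than MSC, 2 became 1 when probes had to be well above background on all arrays. Higher in MFH1NR than MSC, 3 became 1 at 3-fold. That 1 was Gclm by its measured ratio, and its bound of 2.91-fold falls short of 3-fold. Higher in COS1NR than MFH1NR, 1 became 0 without scaling, with normexp, with that filter, at 3-fold and with spike-in scaling, and lower, 3 became 5 with spike-in scaling. Over all genes, 2169 higher in COS1NR than MSC became 3296 without scaling, 1433 with normexp and 1108 at 3-fold, and 2231 lower became 1195 with the filter. For MFH1NR to MSC, 2083 higher became 4162 without scaling, 3674 with spike-in scaling and 1168 at 3-fold, and 2322 lower became 1545 without scaling and 1283 with the filter. For COS1NR to MFH1NR, 1599 higher became 960 with the filter, 970 at 3-fold and 860 with spike-in scaling, and 1396 lower became 913 with normexp, 768 with the filter, 902 at 3-fold and 3345 with spike-in scaling. The stricter filter and threshold leave fewer genes by construction, and for the rest the cause was not tested. The share of higher among called genes, 49.3%, 47.3% and 53.4% in the 3 comparisons, was 65.3%, 72.9% and 35.2% without scaling and 42.2%, 68.7% and 20.5% with spike-in scaling. The median of all genes was then 0.51, 0.77 and -0.25, and -0.04, 0.61 and -0.64. Slide as a block could not be fitted, since the MSC array lay alone on its slide. No paired analysis was possible because each group had 1 sample. Gclm in MSC and Gpx3 in COS1NR were limited by background.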
